A study of Mus musculus with 36 samples.

Results

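H3K9bhb, the β-hydroxybutyryl mark on lysine 9 of histone H3, was set against H3K27ac, the acetyl mark on lysine 27 of the same histone, in crypts of the small intestine of fasted mice. The members are the H3K9bhb and H3K27ac peak lists of fasted pools 2 and 5, which are 4 of the 36 samples of the series. Within each pool, overlapping or touching peaks of both lists were joined, which gave 44522 regions in pool 2 and 42995 regions in pool 5. A region was called shared when an H3K9bhb peak and an H3K27ac peak in it overlapped by at least 1 bp, and otherwise H3K9bhb-only or H3K27ac-only. Fasted animals had been deprived of food for 24 h with free access to water, and fed animals (pools 1 and 4) had both food and water. Animals of 6 to 12 weeks, male and female, came from a strain with the Lgr5EGFP-IRES-CreERT2/+ allele, which expresses EGFP and CreERT2 from the Lgr5 locus of crypt stem cells, or from C57BL/6J, and the labels call all pools wildtype. The crypts of 4 animals were combined in a pool, n is 2 pools per mark, and the labels say that males and females were pooled; the share of each sex or strain in a pool is not given in the sources used here. Crypts hold stem cells, dividing progenitors and secretory cells, and a peak list cannot tell a mark in few cells from a weak mark in many. Crypts of all pools were isolated in 100 nM trichostatin A, an inhibitor of histone deacetylases.

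β-Hydroxybutyrate is a ketone body made by the liver in fasting, and it can be joined to histone lysines as an acyl group, much as acetate is. H3K27ac is laid down by the acetyltransferases p300 and CBP at active promoters and enhancers. H3K4me3 marks promoters and H3K4me1 marks enhancers and the flanks of promoters, so both were used to describe where each class of region lay. In the intestine H3K4me1 and H3K27ac are known to mark enhancers of crypt and villus cells, and β-hydroxybutyrate has been linked to intestinal stem cell function.

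Beside H3K9bhb and H3K27ac, lists of 6 further marks from the same crypts of each fasted pool were laid over the regions. Their lengths differed widely between pools. H3K4me1 had 18692 peaks in pool 2 and 46499 in pool 5, H3K79me2 had 14129 and 31246, H3K4me3 had 15079 and 18429, and H4K12bhb had 26252 and 20031. Both lists of a pool were called against 1 common input. The score of a peak is the authors' value, -10 times the log10 of a p-value, with a lowest value of 50. The lists hold no read totals, so depth is unknown, and the markers of crypt cells were not checked, because the lists carry no gene names. The smallest two-sided p that exact permutation of 2 pools against 2 allows is 0.33, so no comparison here could pass a threshold of 0.05, and intervals for a share cover counting error only. Positions refer to mouse build mm9 and count from 1. What the genome annotation holds at a region was not analysed here.

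H3K9bhb gave about as many peaks as H3K27ac but shorter ones. H3K9bhb had 38934 peaks in pool 2 and 37640 in pool 5, a mean of 38287 ± 915, and H3K27ac had 37974 and 35917, a mean of 36945.5 ± 1455 (SD, n = 2 each). The list lengths of the marks overlapped (exact permutation p = 0.67). The mean peak width was 2127 and 2282 bp for H3K9bhb, against 2612 and 3038 bp for H3K27ac, and here the marks did not overlap (2204 ± 109 and 2825 ± 302 bp, SD, n = 2 each, exact permutation p = 0.33). H3K9bhb peaks covered 82.8 and 85.9 Mb, and H3K27ac peaks covered 99.2 and 109 Mb.

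Most H3K9bhb peaks lay on acetylated chromatin, and a larger part of the H3K27ac length than of the H3K9bhb length lay outside the other mark. In pool 2, 28108 H3K9bhb peaks (72.2%) met an H3K27ac peak and 23781 H3K27ac peaks (62.6%) met an H3K9bhb peak. The shares were 72.8% for H3K9bhb and 60.1% for H3K27ac in pool 5, so H3K9bhb had the higher share in both pools (exact permutation p = 0.33). By length, the marks had 61.3 and 64.9 Mb in common. This was 74.0% and 75.5% of the H3K9bhb length, and 61.8% and 59.5% of the H3K27ac length. The Jaccard index, the common length over the joint length, was 0.507 and 0.499.

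Shared regions were the largest class in both pools, and H3K9bhb-only regions the smallest. There were 19509 shared regions in pool 2 (43.8% of all) and 18457 in pool 5 (42.9%). H3K9bhb-only regions numbered 10821 and 10222, and H3K27ac-only regions 14189 and 14315. The few remaining regions, 3 in pool 2 and 1 in pool 5, held peaks that touched without overlapping. Shared regions were the longest, with a median of 3266 and 3800 bp, against 1060 and 1070 bp for H3K9bhb-only and 1200 and 1360 bp for H3K27ac-only regions.

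**Figure D1:**
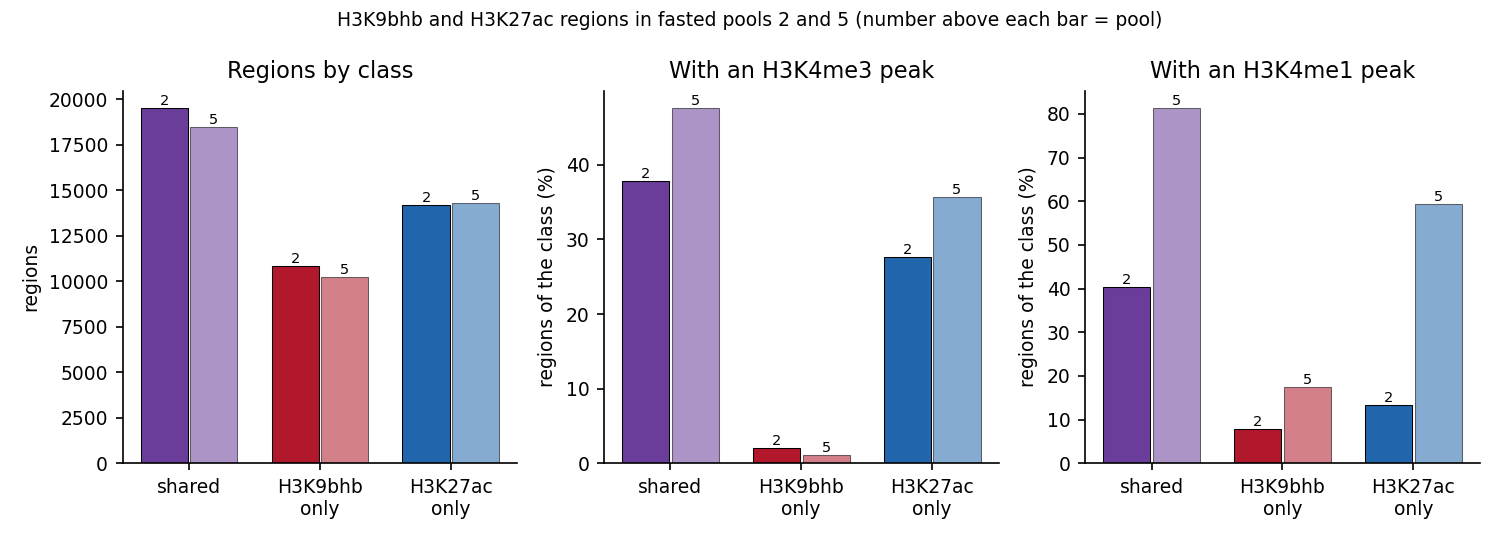
Number of shared, H3K9bhb-only and H3K27ac-only regions in fasted pools 2 and 5 (left), and the percent of each class that overlapped an H3K4me3 peak (middle) or an H3K4me1 peak (right) of the same pool. Each bar is 1 pool, without an error bar. H3K4me3 is at 2.09% and 1.15% of H3K9bhb-only regions and at 27.7% or more of the other classes, while H3K4me1 differs more between pools than between shared and H3K27ac-only regions.

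The promoter mark H3K4me3 was nearly absent from regions with H3K9bhb alone. It overlapped 37.9% of shared regions in pool 2 (Wilson 95% interval 37.2% to 38.6%) and 47.6% in pool 5 (46.9% to 48.3%). Among H3K9bhb-only regions it overlapped 2.09% (1.84% to 2.38%) and 1.15% (0.965% to 1.38%), and among H3K27ac-only regions 27.7% (26.9% to 28.4%) and 35.6% (34.9% to 36.4%). Over all regions of a pool the share was 25.9% and 32.6%. H3K9bhb-only regions therefore stood below shared regions by 41.1 points and below H3K27ac-only regions by 30.0 points in the mean of the pools, with no overlap between classes (exact permutation p = 0.33 for each).

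Part of this order moved with the length of the regions. At 2000 to 3000 bp, H3K4me3 overlapped 30.4% and 39.9% of shared regions and 1.57% and 0.140% of H3K9bhb-only regions. For H3K27ac-only regions of that length the share was 59.3% and 59.9%, above that of shared regions. In regions of 1000 to 3000 bp the difference of shared from H3K27ac-only regions was -13.5 points in the mean of the pools, against 11.1 points over all lengths. The low share of H3K9bhb-only regions held in both pools in each length class from under 1000 bp up to 5000 bp, at no more than 4.81%. The gap was small among short regions, however. Under 1000 bp, where 4703 and 4388 of the H3K9bhb-only regions lay, their share was 2.28% and 1.46%. Shared regions of that length stood at 5.45% and 3.81%, and H3K27ac-only regions at 10.4% and 13.9%. Among the longest H3K9bhb-only regions of pool 2, of 5000 bp or more, 57.1% of 35 overlapped H3K4me3, while in pool 5 none of the 7 such regions did.

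The enhancer mark H3K4me1 differed between classes and also between pools. It overlapped 40.3% of shared regions in pool 2 and 81.3% in pool 5. The shares were 7.77% and 17.6% for H3K9bhb-only regions and 13.3% and 59.4% for H3K27ac-only regions. Within each pool the order over all lengths was shared, H3K27ac-only, H3K9bhb-only. In pool 5, H3K27ac-only regions stood above shared regions in each length class under 3000 bp, for example 50.0% of shared and 57.9% of H3K27ac-only regions at 1000 to 1500 bp. In regions of 1000 to 3000 bp the shares were 21.3% and 62.9% for shared and 14.6% and 61.8% for H3K27ac-only regions, a mean difference of 3.85 points, against 24.4 points over all lengths. Over pools, shared and H3K9bhb-only regions did not overlap (exact permutation p = 0.33), while the values of H3K27ac-only regions overlapped those of each of the other classes (p = 0.67 for both, exact permutation). When an H3K4me1 peak of either fasted pool counted, the shares were 77.1% and 82.3% for shared, 24.8% and 19.2% for H3K9bhb-only and 54.4% and 60.6% for H3K27ac-only regions. With the same H3K4me1 peaks laid over both pools, the classes did not overlap (exact permutation p = 0.33 for each pair), and the pools differed by less than the classes did.

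Most H3K9bhb-only regions carried neither of the H3K4 marks. This was so for 90.7% and 81.9% of them, against 38.9% and 12.8% of shared and 61.6% and 22.5% of H3K27ac-only regions. Of all 6 further marks, none was called on 75.7% and 71.2% of H3K9bhb-only regions and on 21.2% and 10.8% of shared regions. For H3K27ac-only regions this share was 49.2% and 19.96%, and over all regions of a pool it was 43.4% and 28.2%. Shared regions were the longest, and this share was not compared at like length. H4K12bhb, the β-hydroxybutyryl mark on lysine 12 of histone H4, overlapped 71.3% and 56.1% of shared, 13.9% and 3.49% of H3K9bhb-only and 27.9% and 10.8% of H3K27ac-only regions. The other β-hydroxybutyryl mark thus lay on shared regions more often than on regions with H3K9bhb alone in both pools. At like length the gap was smaller. In regions of 1000 to 1500 bp H4K12bhb overlapped 30.1% and 10.2% of shared and 13.8% and 3.81% of H3K9bhb-only regions. At 2000 to 3000 bp the shares were 61.7% and 37.4% of shared and 27.1% and 5.17% of H3K9bhb-only regions. At 3000 to 5000 bp they were 82.9% and 58.6%, against 48.1% and 8.13%. H3K79me2, which lies over the first part of transcribed genes, overlapped 17.1% and 42.5% of shared, 6.87% and 15.7% of H3K9bhb-only and 7.41% and 24.2% of H3K27ac-only regions. The repressive marks were rare throughout. H3K27me3, the Polycomb mark, overlapped at most 3.46% of any of these classes, and H3K9me3, a heterochromatin mark, at most 0.179%.

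Peaks of either mark met the other more often the higher they stood in their own list. Each list was divided by score into 10 bins of equal size, from the lowest (bin 1) to the highest (bin 10). In bin 1 of the H3K9bhb lists, 44.0% and 45.3% of peaks met H3K27ac, and in bin 10 99.1% and 99.8% did. For the H3K27ac lists the shares that met H3K9bhb were 33.2% and 35.6% in bin 1 and 99.5% in bin 10 of each pool. Score and width were tied within each list, with a Spearman rho of 0.86 and 0.88 over H3K9bhb peaks and 0.90 and 0.91 over H3K27ac peaks, so a high bin is also a bin of long peaks.

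Single-mark peaks of the marks parted in their H3K4me3 with score. Among H3K27ac peaks that met no H3K9bhb peak, H3K4me3 overlapped 9.82% and 10.6% in bin 1 and 78.4% and 93.2% in bin 8. All H3K27ac peaks of bin 8, with or without H3K9bhb, stood lower, at 51.0% and 66.9%. For H3K9bhb peaks that met no H3K27ac peak the share ran between 0.315% and 2.77% in bins 1 to 8. H3K27ac peaks without H3K9bhb were thus mostly at H3K4me3 in bins 7 to 9 of both pools, but not in bin 5 (30.9% and 39.1%) or in bin 10 of pool 2 (45% of 20 peaks).

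**Figure D2:**
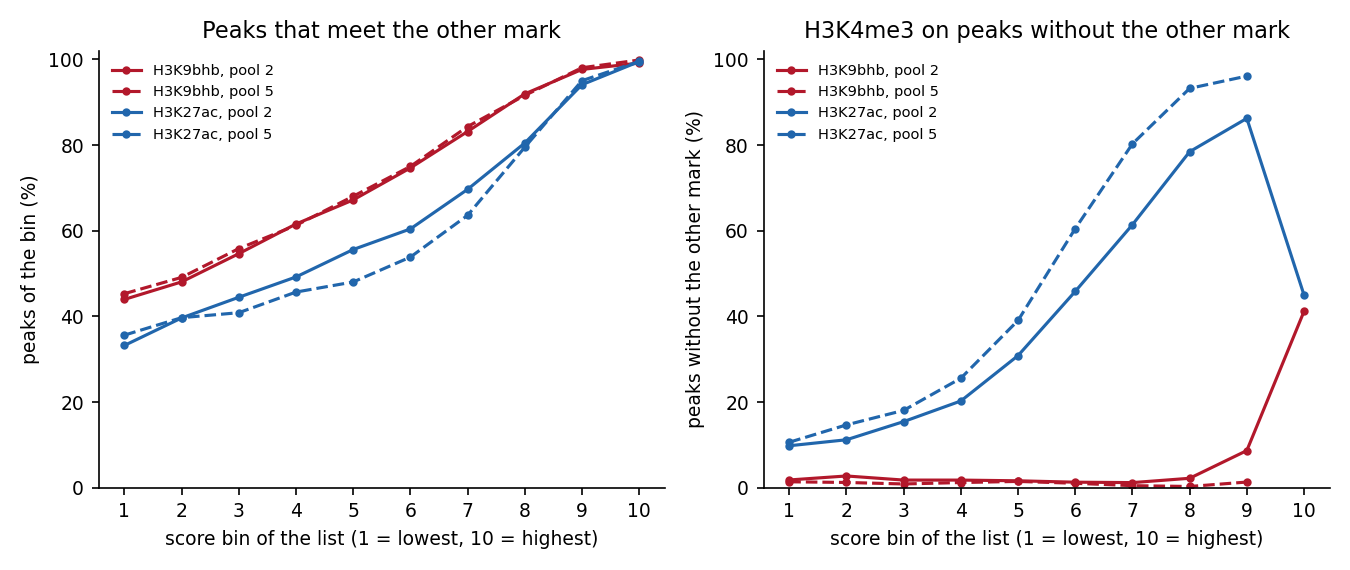
Left, percent of peaks that met a peak of the other mark in the same pool, by score bin of the list. Right, percent of the peaks without the other mark that overlapped an H3K4me3 peak; a point is left out where a bin held fewer than 20 such peaks. Red lines are H3K9bhb, blue lines H3K27ac, solid pool 2 and dashed pool 5. The red lines on the right stay at or under 2.77% up to bin 8, while the blue lines reach 78.4% and 93.2% there; H3K9bhb bin 10 of pool 2 has 41.2% of 34 peaks.

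H3K9bhb-only regions were low in their list and close to acetylation. Their median score percentile was 26.6 and 26.8, against 66.8 and 68.2 for the highest H3K9bhb peak of each shared region. In shared regions with 1 peak of each mark, the median H3K9bhb percentile was 55.5 and 57.1. The nearest H3K27ac peak lay at a median of 1888 and 1643.5 bp, within 1 kb for 33.7% and 35.9% and beyond 10 kb for 9.73% and 6.62% of them. H3K27ac-only regions lay farther from the other mark, at a median of 3898 and 9817 bp from the nearest H3K9bhb peak, with 38.1% and 49.8% beyond 10 kb. At the border between the classes, regions with 1 peak of each mark that overlapped by at most 100 bp numbered 145 and 123, and 8.97% and 13.8% of them had H3K4me3. H3K9bhb-only regions with an H3K27ac peak within 100 bp numbered 441 and 467, and 5.90% and 5.14% of them had H3K4me3.

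Strong H3K9bhb peaks without H3K27ac were few, and nearly all had H3K27ac in the other pool. Only 34 H3K9bhb-only regions in pool 2 and 6 in pool 5 held a peak of score bin 10. Of the 34, 32 met an H3K27ac peak of pool 5, 28 met H4K12bhb and 14 met H3K4me3 of their own pool, and they lay on 12 chromosomes. All 6 of pool 5 met an H3K27ac peak of pool 2, but only 1 met H4K12bhb and none met H3K4me3 of their own pool. Among the remaining H3K9bhb-only regions, 22.0% and 30.2% met H3K27ac of the other pool. H3K27ac-only regions with a peak of bin 10 were as few, 20 and 18, and 19 and 17 of them met H3K9bhb of the other pool.

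Places shared in a pool kept their class in the other pool more often than single-mark places did. The regions of both pools were merged into places, and a place that met any shared region of a pool counted as shared there. Single-mark regions within such a place were not counted as single-mark. This gave 48455 places. Of those, 12671 were shared in both pools, which is 77.5% of the places shared in pool 2 and 75.4% of those shared in pool 5. H3K9bhb-only in both pools were 1658 places, 18.6% and 20.1% of those with this class in pools 2 and 5. H3K27ac-only in both were 4498 places, 41.2% and 34.7%. Of the H3K9bhb-only places of pool 2, 6059 (68.1%) held neither mark in pool 5. Shared regions were also the longest and held higher-ranked peaks, and the part of length and rank in this recurrence was not tested.

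The recurrent H3K9bhb-only places kept the lack of H3K4me3. Only 16 of the 1658 (0.965%) overlapped an H3K4me3 peak of either fasted pool, against 57.9% of the recurrent shared and 56.9% of the recurrent H3K27ac-only places. H3K4me1 of either pool overlapped 18.6% of the recurrent H3K9bhb-only places, 89.4% of the shared and 61.8% of the H3K27ac-only places. None of the 6 further marks was called in either pool on 1046 of the 1658 (63.1%), against 3.48% of the shared and 8.20% of the H3K27ac-only places. The median width was 1706 bp for recurrent H3K9bhb-only, 5573 bp for shared and 2005 bp for H3K27ac-only places.

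The strongest recurrent H3K9bhb-only place spanned chromosome 19 from 41938945 to 41943682. Its single H3K9bhb peak covered 88.6% of the place in pool 2 and all of it in pool 5, and stood at score percentiles 81.0 and 78.5. H4K12bhb of pool 2 was the only further mark called there. The next lay on chromosome 11 from 115359164 to 115361625, at percentiles 78.4 and 77.6, on chromosome 8 from 118611095 to 118614180, at 76.7 and 86.4, and on chromosome 4 from 148135228 to 148138823, at 82.7 and 75.8. None of the 6 further marks was called on these. The last of the 5, on chromosome 4 from 129767160 to 129772162, stood at percentiles 75.1 and 76.6 and met H3K4me1 in pool 5 alone. No H3K4me3 peak was called on any of the 5 in either pool.

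The strongest recurrent H3K27ac-only places were mostly at H3K4me3. They lay on chromosome 3 from 135487012 to 135490548, on chromosome 4 from 120240867 to 120244887, on chromosome 16 from 46846408 to 46853075, on chromosome 3 from 123208921 to 123212675 and on chromosome 1 from 123222499 to 123226306. H3K4me3 was called in both pools on all but the chromosome 16 place, which had it in pool 5 alone. Their H3K27ac score percentiles ran from 82.8 to 90.2 in pool 2 and from 83.03 to 86.2 in pool 5. H4K12bhb of pool 2 met the same 4 places that had H3K4me3 in both pools.

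Shared regions most often held 1 peak of each mark. Such 1-to-1 regions numbered 12312 in pool 2 (63.1% of shared) and 11374 in pool 5 (61.6%). In 19.4% and 24.6% several H3K9bhb peaks met 1 H3K27ac peak, and in 6.16% and 4.88% 1 H3K9bhb peak met several H3K27ac peaks. H3K9bhb was thus the mark that was more often broken into several peaks. H3K4me3 overlapped 50.8% and 57.6% of the regions with several H3K9bhb peaks on 1 H3K27ac peak, 33.7% and 44.8% of the 1-to-1 regions, and 26.6% of the regions with several H3K27ac peaks on 1 H3K9bhb peak in each pool.

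Where the marks met 1-to-1, H3K9bhb was the narrower mark, and it lay inside H3K27ac more often than the reverse. The median width was 1561 and 1615 bp for H3K9bhb (mean of the pools 1588 ± 38.2 bp, SD, n = 2) and 2075 and 2647.5 bp for H3K27ac (2361 ± 405 bp, SD, n = 2), with no overlap between marks (exact permutation p = 0.33). H3K9bhb extended past H3K27ac at both ends in 11.6% and 10.2% of 1-to-1 regions, and H3K27ac past H3K9bhb at both ends in 37.4% and 49.3% (exact permutation p = 0.33). In a further 50.8% and 40.3% the peaks were staggered, each ending farther out on 1 side. Counted per end, the median offset of H3K9bhb from the end of H3K27ac was -126 and -265 bp. Between their quartiles the offsets ran from -579 to 140 bp and from -827 to 66 bp, where a negative value is an H3K9bhb end inside H3K27ac. Ends were within 200 bp of each other in 34.5% and 27.7% of cases. The centres of the peaks were a median of 297 and 331.5 bp apart.

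**Figure D3:**
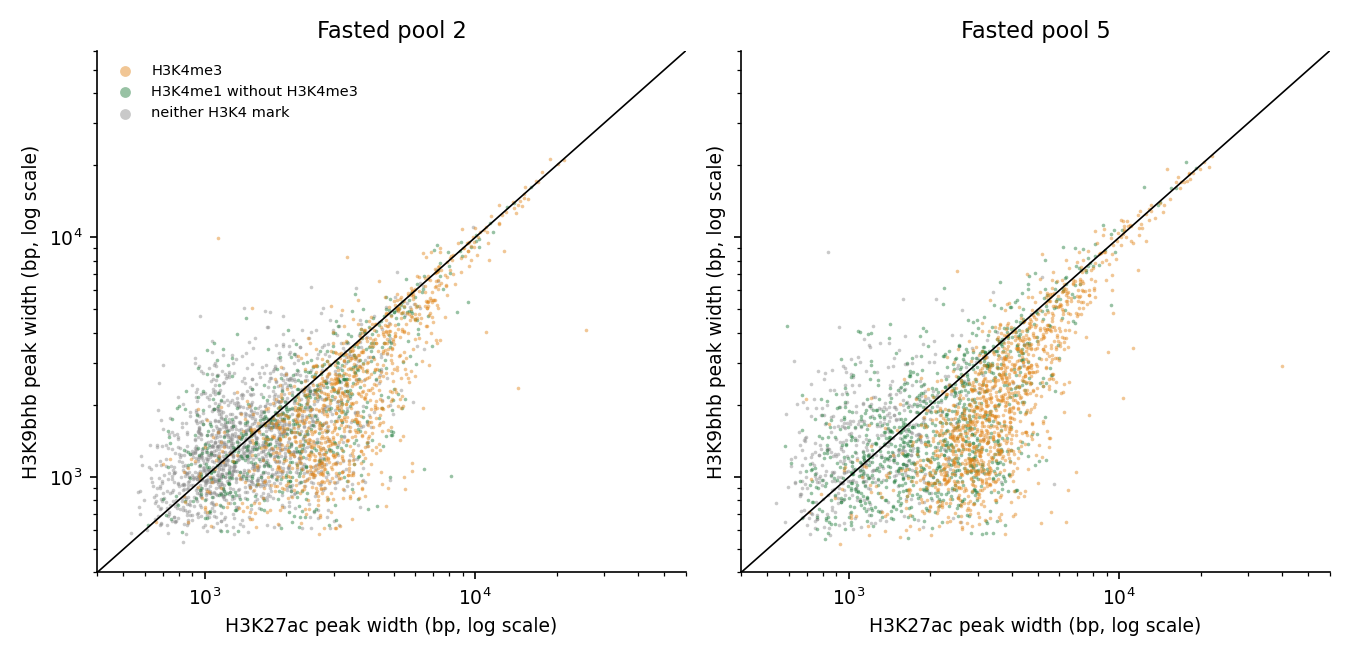
Width of the H3K9bhb peak against the width of the H3K27ac peak in 1-to-1 regions, on log scales, for 6000 regions drawn at random from both pools. Colours give the H3K4 mark of the region in the same pool, and the line marks equal widths. Points with H3K4me3 lie mostly below the line, with median width ratios of 0.710 and 0.597, and points with neither H3K4 mark lie around it, at 0.956 and 1.13.

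Of the H3K4 settings compared, the shortfall of H3K9bhb was greatest at H3K4me3. In 1-to-1 regions with H3K4me3, the median H3K9bhb width was 0.710 and 0.597 of the H3K27ac width, and H3K27ac extended past H3K9bhb at both ends in 59.1% and 74.4%. In regions with H3K4me1 and no H3K4me3 the median ratio was 0.873 and 0.799. Where neither H3K4 mark was called, the median ratio was 0.956 and 1.13, and H3K9bhb was the wider mark in 45.6% and 62.0% of regions. The ratio followed the same order of H3K4 settings in both pools. The end offset was a median of -336.5 and -571 bp at H3K4me3 and -27 and 49 bp where neither mark was called. Pool 5 alone thus had H3K9bhb reaching beyond H3K27ac in the median of the last group. Regions with H3K4me3 were also longer, with a median of 3284 and 3542 bp, against 1903 and 1793 bp where neither mark was called. By region width in 4 bins of equal size, the median ratio was 0.965 and 0.934 in the shortest bin. It was 0.865 and 0.633 in bin 2, 0.706 and 0.565 in bin 3, and 0.825 and 0.808 in the longest bin. The part of length in the order of H3K4 settings was not tested.

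Where the centres of H3K79me2 peaks lay on only 1 side of the H3K4me3 centre, that side was taken as the side toward the transcribed gene. There were 1381 such 1-to-1 regions with H3K4me3 in pool 2 and 2806 in pool 5. The direction of transcription was not checked against genes, and H3K79me2 covered the H3K4me3 centre itself in 16.7% and 55.8% of these regions. H3K9bhb stopped short of H3K27ac on both sides. The median offset was -315 and -547 bp on the H3K79me2 side, against -490 and -695.5 bp on the other side (exact permutation p = 0.67). Within pools the offset on the H3K79me2 side was nearer to 0, by 175 bp in pool 2 and 148.5 bp in pool 5. From the centre of the H3K4me3 peak, H3K9bhb reached a median of 1062 and 871 bp on the H3K79me2 side and 1156.5 and 1061 bp on the other. H3K27ac reached 1475 and 1510 bp on the H3K79me2 side and 1777 and 1869 bp on the other. Both marks thus reached farther on the side away from H3K79me2 in each pool.

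**Figure D4:**
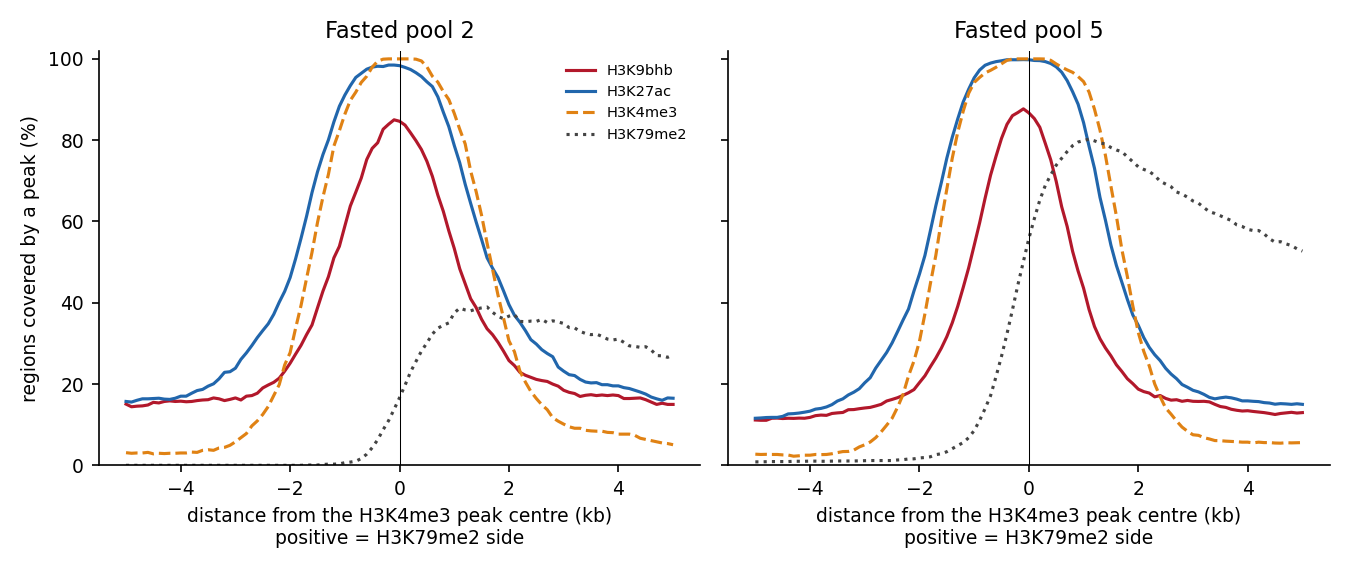
Percent of 1-to-1 H3K4me3 regions covered by a peak of each mark at a given distance from the centre of the H3K4me3 peak, turned so that the H3K79me2 side lies to the right (1381 regions in pool 2, 2806 in pool 5). At the centre H3K9bhb covers 84.6% and 86.7% and H3K27ac 98.3% and 99.8%. At 1000 bp on the H3K79me2 side H3K9bhb covers 53.4% and 43.6%, and at 1000 bp on the other side 58.9% and 54.1%, in pools 2 and 5.

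The score ranks of the marks were moderately related in 1-to-1 regions. Spearman's rho between the H3K9bhb and H3K27ac scores was 0.510 over 12312 regions in pool 2 and 0.522 over 11374 in pool 5. These values describe regions of 1 library each that share an input and whose scores follow width, and they carry no test. The relation was closest at H3K4me3, with rho of 0.678 and 0.732, lower at H3K4me1 without H3K4me3, with 0.578 and 0.456, and lowest where neither was called, with 0.297 and 0.250. Divided by region width into 4 bins of equal size, the regions gave 0.563 and 0.571 in the longest bin and between -0.062 and 0.227 in the others. Widths of the peaks were related to a like degree, with rho of 0.580 and 0.563.

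Regions in which H3K9bhb ranked far above H3K27ac seldom had H3K4me3. Each score was turned into a percentile of its own list, and 1-to-1 regions were put into 5 bins by the H3K9bhb percentile minus the H3K27ac percentile, from H3K27ac highest above H3K9bhb (bin 1) to H3K9bhb highest above H3K27ac (bin 5). H3K4me3 overlapped 52.2% and 70.2% of bin 1 in pools 2 and 5, 42.1% and 61.0% of bin 2, 48.7% and 63.5% of bin 3, 20.6% and 25.8% of bin 4, and 4.96% and 3.604% of bin 5. The share showed no steady trend over bins 1 to 3 and was lower in bins 4 and 5 of each pool. H4K12bhb overlapped 69.3% and 49.0% of bin 1, and 39.5% and 18.2% of bin 5. Neither H3K4 mark was called on 32.2% and 3.08% of bin 1 and on 77.7% and 50.5% of bin 5. The width of the peaks went with these ranks. In bin 5, H3K9bhb peaks had a median width of 1756 and 1982 bp and H3K27ac peaks one of 1183 and 1336 bp. By construction, bin 5 also favours regions of low H3K27ac rank. Over all H3K27ac peaks of score bins 1 to 3, with or without H3K9bhb, H3K4me3 overlapped 8.24% to 11.2% in pool 2. In pool 5 it overlapped 7.91% to 12.4% of them. The part of the H3K27ac rank in the low H3K4me3 share of bin 5 was not tested.

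**Figure D5:**
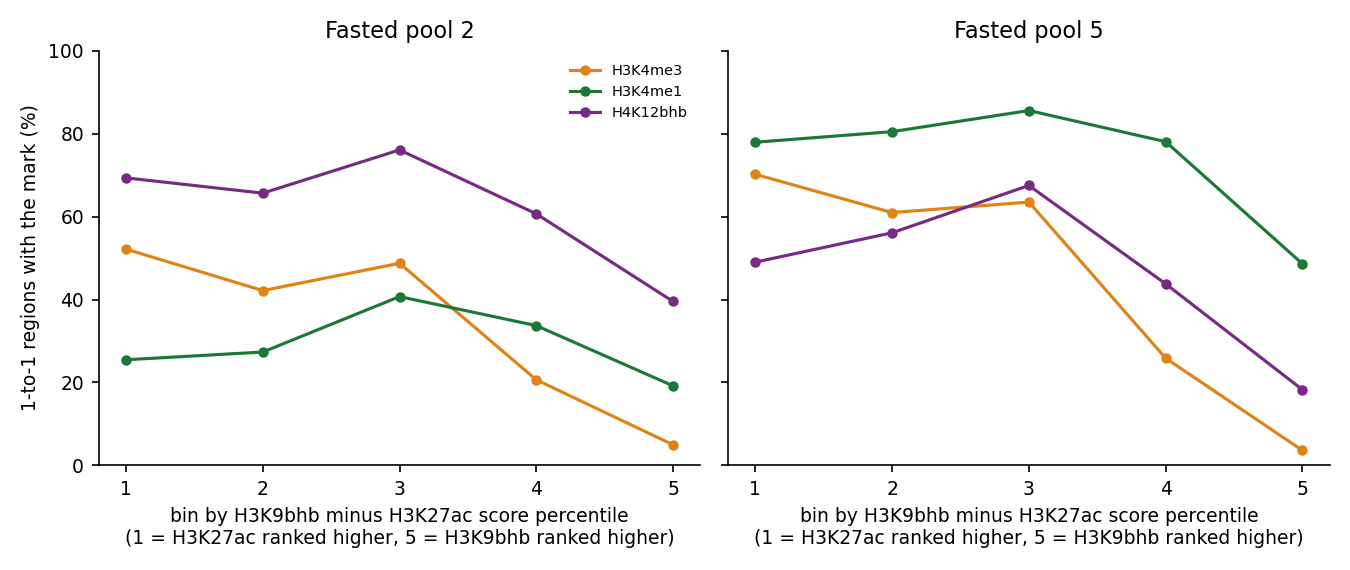
Percent of 1-to-1 regions that overlapped H3K4me3, H3K4me1 or H4K12bhb of the same pool, by bin of the H3K9bhb minus H3K27ac score percentile, from H3K27ac ranked higher (1) to H3K9bhb ranked higher (5). H3K4me3 has 52.2% and 70.2% in bin 1 and 4.96% and 3.604% in bin 5. H3K4me1 and H4K12bhb are highest in bin 3 in both pools.

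The difference in rank recurred in part between pools. A total of 4450 1-to-1 regions of pool 2 overlapped a single 1-to-1 region of pool 5, which in turn overlapped no other 1-to-1 region of pool 2. The joint span of such a pair, given below as a place, may reach a further peak of either mark. Over these pairs, rho between pools was 0.444 for the rank difference and 0.404 for the log2 width ratio, 0.516 for the H3K9bhb percentile and 0.794 for the H3K27ac percentile. H3K9bhb stood more than 30 percentile points above H3K27ac in both pools at 119 places, and H3K27ac more than 30 points above H3K9bhb in both at 255. At 44 places the sign was opposite in the pools by that margin. H3K4me3 overlapped 0.840% of the 119 in each pool, and 78.0% and 85.5% of the 255. Over all 4450 the share was 49.2% and 54.1%. Against H3K27ac of the other pool, over the same places, rho was 0.365 for H3K9bhb of pool 2 and 0.516 for H3K9bhb of pool 5, below the 0.527 and 0.554 within pools. Over all regions that were 1-to-1 across pools, however, rho was 0.411 for H3K9bhb of pool 2 with H3K27ac of pool 5 and 0.568 for H3K9bhb of pool 5 with H3K27ac of pool 2, so that only the first lay below the within-pool values of 0.510 and 0.522.

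The place where H3K9bhb stood farthest above H3K27ac in both pools was on chromosome 12 from 78240782 to 78243294. There H3K9bhb stood at score percentile 85.5 in pool 2 and 70.6 in pool 5, and H3K27ac at 15.1 and 7.26. Next came chromosome 11 from 115326852 to 115329544, with H3K9bhb at 78.7 and 64.0 and H3K27ac at 16.9 and 2.55. The remaining places of this rank were on chromosome 18 from 61496204 to 61499533 and on chromosome 17 from 84746138 to 84749391. No H3K4me3 peak was called on any of the 4 in either pool.

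In the other direction the leading place was on chromosome 2 from 70891485 to 70894995. H3K9bhb stood at score percentile 10.7 and 0.598 there, and H3K27ac at 81.6 and 82.6. Its H3K9bhb peak covered 26.5% and 22.8% of the place, and its H3K27ac peak 96.3% and 98.7%. The other places were on chromosome 13 from 41343732 to 41346977, on chromosome 3 from 61165822 to 61170230 and on chromosome 16 from 64850091 to 64853655. H3K4me3 was called on all 4 places in both pools.

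Seen from the promoter mark, H3K4me3 peaks carried H3K9bhb less often than H3K27ac. Of the H3K4me3 peaks, 56.9% and 53.0% met H3K9bhb, against 81.9% and 80.9% that met H3K27ac. H3K9bhb without H3K27ac was found on 154 H3K4me3 peaks in pool 2 (1.02%) and 36 in pool 5 (0.195%), and H3K27ac without H3K9bhb on 3916 (26.0%) and 5162 (28.0%). The H3K4me3 peaks with both marks stood higher in their list than those with H3K27ac alone, at a median percentile of 64.4 and 68.5, against 48.8 and 49.4. They were also wider, at a median of 2640 and 3072 bp, against 1898.5 and 2082 bp. H3K9bhb was met by 64.8% and 47.1% of H3K4me1 peaks, against 73.1% and 65.7% for H3K27ac.

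In long shared regions the marks covered nearly the same ground. Shared regions of 15 kb or more numbered 567 in pool 2 and 703 in pool 5, and the longest spanned 58091 and 57154 bp. H3K9bhb peaks covered 92.2% and 92.6% of their length, and H3K27ac peaks 94.9% and 93.7%. In shared regions under 15 kb H3K9bhb covered 77.8% and 74.8%, and H3K27ac 89.5% and 90.4%. H3K4me1 overlapped 97.2% and 100% of the long regions, H4K12bhb 99.1% and 99.4%, and H3K4me3 72.7% and 77.0%. A region of this length meets a peak of any mark more easily than a short one.

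The shared place that ranked highest by the lowest of its 4 score percentiles spanned chromosome 11 from 98244202 to 98265652. H3K9bhb covered 94.4% and 97.7% of it and H3K27ac 88.9% and 75.1%. The next, on chromosome 14 from 66700572 to 66715626, carried H3K4me1 and no H3K4me3 in both pools, with 75.7% and 89.4% of it covered by H3K9bhb and 87.6% and 87.8% by H3K27ac. Those that followed were on chromosome 4 from 141274754 to 141288838, on chromosome 2 from 103159748 to 103171026 and on chromosome 17 from 34716494 to 34731415. The chromosome 17 place had H3K4me3 in both pools and H3K4me1 in neither. All 5 met H4K12bhb in both pools, and their lowest percentile was 97.8.

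Chromosome X stood apart from the autosomes in the balance of the marks. H3K9bhb had 64 and 119 peaks there (0.164% and 0.316% of its list), and H3K27ac had 293 and 564 (0.772% and 1.57%). The ratio of H3K9bhb to H3K27ac peaks was 0.218 and 0.211 on chromosome X, while on the 19 autosomes it ran from 0.9497 to 1.17 in pool 2 and from 0.945 to 1.19 in pool 5. Of the H3K27ac peaks of chromosome X, 16.0% and 16.1% met H3K9bhb, and the lowest autosome stood at 57.3% and 54.3%. H3K27ac-only regions of chromosome X numbered 246 and 473, and 39.8% and 55.4% of them had H3K4me3. H3K4me1 had 7 and 171 peaks there (0.0374% and 0.368% of its list). H3K79me2 had 8 and 337 (0.0566% and 1.08%), and H4K12bhb had 123 and 52 (0.469% and 0.260%). H3K4me3 had 239 and 440 (1.58% and 2.39%), a larger share of its list than H3K9bhb or H3K27ac had in the same pool. Pools mixed the sexes in shares that are not given, and the part of sex in these counts was not tested.

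H3K9bhb and H3K27ac were set beside 3 other pairs of marks of the fasted pools. Their Jaccard index of 0.507 and 0.499 lay above that of H3K9bhb and H4K12bhb (0.479 and 0.355) and of H3K4me1 and H3K27ac (0.180 and 0.439), each with an exact permutation p of 0.33. H4K12bhb and H3K27ac had 0.527 and 0.339, which overlapped it (exact permutation p = 1). The score ranks of H4K12bhb and H3K27ac were more closely related, with rho of 0.695 and 0.606, than those of H3K9bhb and H3K27ac (0.510 and 0.522, exact permutation p = 0.33). Of the single-mark classes compared, H3K9bhb without H3K27ac had the lowest H3K4me3 share, at 2.09% and 1.15%. H3K9bhb regions without H4K12bhb had 4.00% and 10.8%, H4K12bhb regions without H3K27ac had 8.86% and 7.32% and H3K4me1 regions without H3K27ac had 7.19% and 7.33%. Each of these differed from the H3K9bhb-only value without overlap (exact permutation p = 0.33).

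In fed crypts, fewer regions were shared and H3K9bhb was not always the narrower mark. Shared regions numbered 19509 and 18457 in fasted pools 2 and 5, against 10154 and 6080 in fed pools 1 and 4 (exact permutation p = 0.33). H3K9bhb-only regions numbered 10821 and 10222 in fasted, against 6847 and 6990 in fed pools, without overlap. H3K27ac-only regions numbered 14189 and 14315 in fasted, against 15529 and 8323 in fed pools, which overlapped. These are counts, not shares of the regions of a pool. In both fed pools H3K27ac-only was the largest class, and in fed pool 4 H3K9bhb-only regions outnumbered shared ones. Of H3K27ac peaks, 62.6% and 60.1% met H3K9bhb in fasted pools, against 43.8% and 46.3% in fed pools. In 1-to-1 regions the median H3K9bhb width was 0.752 and 0.610 of the median H3K27ac width in fasted pools, against 0.786 and 1.07 in fed pools (exact permutation p = 0.33). The rho of the score ranks was 0.510 and 0.522 in fasted pools, against 0.314 and 0.266 in fed pools (exact permutation p = 0.33). Fed lists were shorter and their scores lower, with medians of 77.0 and 78.3 for H3K9bhb and 87.7 and 74.1 for H3K27ac, against 98.7 and 110.6 and against 134.5 and 263.7 in fasted pools, and their part in these differences was not tested.

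Regions shared in fasted crypts were often marked in fed crypts as well, and single-mark regions less often. Shared regions were also the longest, and the part of length in this difference was not tested. An H3K9bhb peak of either fed pool met 56.7% and 55.6% of the fasted shared regions, 12.9% and 16.7% of the H3K9bhb-only and 12.7% and 9.07% of the H3K27ac-only regions. For H3K27ac of either fed pool the shares were 70.8% and 71.2%, 14.3% and 17.6%, and 26.6% and 20.4% of these classes. Over all regions of a pool, fed H3K9bhb met 32.1% and 30.9%, and fed H3K27ac met 43.0% and 41.5%. H3K9bhb-only regions of fasted crypts thus met fed H3K27ac about as often as fed H3K9bhb, while over all regions fed H3K27ac was met more often. The fed H3K27ac lists also held more peaks than the fed H3K9bhb lists of the same pool.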

How the data were processed

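Chromatin immunoprecipitation and sequencing of 8 histone marks was deposited as 32 peak lists, with 5 columns each: chromosome, start, end, peak name and score. The deposited score comes from the authors' peak caller and equals -10 times the log10 of a p-value, with a lowest value of 50 (p = 1e-05). Peaks were ranked and filtered by it within a list and never compared by it across lists. Per the file names, MACS 1 was run on each library without model building, with its pool's input as control. Tools named in the submitters' processing notes are FastQC, deepTools 1.5.11, SAMtools 1.9 and Bowtie 1.1.2, and the build is mm9. Further filters and read depth were not given in the sources used here, so the number and width of peaks may move with depth and antibody yield.

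Peaks of both marks of a pool were joined where they overlapped or touched, with Python 3.11.15, numpy 2.4.6, pandas 2.3.3, scipy 1.17.1 and matplotlib 3.10.9. A mark was on a region when a peak of the same pool overlapped it by 1 bp. Pool values, 2 against 2, were compared by exact permutation (two-sided). Regions are not replicates and carry no test. Same-numbered libraries come from the same pool of crypts, so the numbers pair the samples by design, and a sign-flip test within pools was the paired alternative. Recurrence of classes was counted after merging the regions of the pools; rank differences were compared over 1-to-1 regions that overlapped each other and no other across pools. Named places were those with the highest value of their lowest score percentile in each class (5 shared, 5 H3K9bhb-only, 5 H3K27ac-only), and the 4 with the largest rank difference each way. The regions, classes and rules were chosen with earlier results of these data known. Interval functions were tested on simulated data with 30000 sites, where 10 of 10 quantities came out as planted. The number of sites is among these quantities and was equal by construction. On the deposited lists the functions equalled bedtools 2.31.1 in 6 of 6 checks. Gene names and sequences were not used here, because the gene reference at hand is on another build than mm9. The inputs and 12 lists of other marks in fed pools were not used.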

Additional observations from a re-analysis of the deposited data

Results flagged for a closer look

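The order of the list lengths differed between conditions. H3K9bhb had more peaks than H3K27ac in both fasted pools (38934 against 37974 in pool 2, 37640 against 35917 in pool 5). It had fewer in both fed pools (19555 against 27640 in pool 1, 13923 against 15504 in pool 4). The mean differences of fasted and fed pools were 6174.5 peaks apart. This was picked out because every fasted pool lay on one side of 0 and every fed pool on the other; the difference itself was not tested. At a score of 100 or more the fasted difference changed sign, to -4821.5 peaks in the mean of the pools.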

How the results depend on the processing

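Of the alternative values, 130 were labelled as kept, 9 as moved and 2 as changed in direction, and the causes were not tested. A comparison was kept when its sign held, whatever its size. A count was kept within a set fold of the main value, and rho within the SD of the pools. The sign-flip values and the rho of a single pool count as kept by construction, so the 130 are no measure of robustness. At a score of 100 or more, H3K9bhb had fewer peaks than H3K27ac, by -4821.5 in the mean of the pools, against 1341.5 at the deposited score. In regions of 1000 to 3000 bp, H3K4me3 on shared minus H3K27ac-only regions was -13.5 points, against 11.1, and H3K4me1 on the same classes was 3.85 points, against 24.4. With H3K4me1 of either fasted pool, the last difference was 22.3 points and the classes no longer overlapped (exact permutation p = 0.33, against 0.67). A score of 100 or more gave a mean of 12094.5 shared and 3609 H3K9bhb-only regions per pool and 584 places H3K9bhb-only in both pools, against 18983, 10521.5 and 1658. Peaks of a mark merged across gaps of up to 1000 bp gave 6809.5 H3K9bhb-only regions per pool and 955 such places in both pools. The mean rho of the score ranks, 0.516, became 0.533 at that score, 0.506 with 50% of the shorter peak overlapped, 0.638 with gaps merged and 0.489 with the pools crossed (0.411 and 0.568). With the replicate block (pairing by pool) the exact sign-flip p was 0.5, the smallest that 2 pairs allow, and it changed no call, since no result passed 0.05 either way. Leaving out 1 pool kept every direction but could not be applied to classes counted over both pools, and equal numbers of top peaks fix the difference in peak number at 0. Alternatives chosen after seeing the data, autosomes alone and single-mark regions of score bin 10 left out, turned no direction. Read depth is unknown, so the lack of a peak does not show the lack of a mark.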
